A study of Mus musculus with 11 samples.

Results

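Matrix metalloproteinases (MMPs) and tissue inhibitors of metalloproteinases (TIMPs) were examined through 10 genes, Mmp2, Mmp3, Mmp9, Mmp10, Mmp11, Mmp12, Mmp13, Mmp14, Timp1 and Timp2. Every probe set annotated to exactly 1 of these genes was taken, whatever its values, which gave 16 of the 12422 probe sets tested and 10 of the 8251 genes that a probe set names. Mmp2, Mmp9, Mmp12 and Timp1 have 2 probe sets each, Timp2 has 3 and the other 5 genes have 1. RNA was taken from mammary glands with PN1a lesions (5 samples) or PN1b lesions (6 samples) at 8 weeks after transplantation and hybridized to Affymetrix MG_U74Av2 arrays. PN1a and PN1b are p53-null mammary epithelial lines of Balb/c origin, and each was kept by serial transplantation of tissue into cleared fat pads of wild-type female Balb/c hosts. Both groups share the loss of p53 and the type of host, each line goes back to 1 outgrowth of the same mouse, and a gland holds host stroma, fat and blood cells beside the transplanted epithelium. In RNA of whole glands, fewer cells of a type and less RNA per cell cannot be told apart. The comparison of PN1a with PN1b asks which transcripts differ between premalignant lesions with high and with low potential to become invasive.

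MMPs are zinc-dependent proteases that are made as inactive precursors and cut proteins of the extracellular matrix and the cell surface. TIMPs bind the active enzymes and block them, so that proteolysis in a tissue depends on the balance of both families. In the mammary gland they take part in branching of the ducts and in involution after lactation, and in lesions they are made by epithelium, fibroblasts, macrophages and neutrophils. Several MMP genes carry a binding site for AP-1, a dimer of Fos and Jun proteins, close to the start of transcription.

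Of the 10 genes, 4 lie in 1 cluster on chromosome 9, where the gene order in RefSeq (GRCm38.p6) is Mmp13, Mmp12, Mmp1b, Mmp3, Mmp1a, Mmp10, Mmp8, Mmp27, Mmp20 and Mmp7. Promoter windows of 300 bases, 250 before and 50 from the gene start on, were matched by symbol for 8 of the 10 genes, Mmp2 and Mmp9 being the others. The AP-1 motif TGANTCA, which is its own reverse complement and so covers both strands, was found in the windows of Mmp3, Mmp10, Mmp12 and Mmp13, which are the 4 genes of the cluster. It was not found in those of Mmp11, Mmp14, Timp1 and Timp2, which says only that these letters are not in these windows. Over all 32851 windows of the same length 7.81% hold the motif, and in the cluster 8 of 10 genes do, the exceptions being Mmp8 and Mmp27. The 4 windows are shown because they carry this shared element of the clustered genes, with the motif in capitals.
Mmp13, chr9:7272264-7272563, plus strand: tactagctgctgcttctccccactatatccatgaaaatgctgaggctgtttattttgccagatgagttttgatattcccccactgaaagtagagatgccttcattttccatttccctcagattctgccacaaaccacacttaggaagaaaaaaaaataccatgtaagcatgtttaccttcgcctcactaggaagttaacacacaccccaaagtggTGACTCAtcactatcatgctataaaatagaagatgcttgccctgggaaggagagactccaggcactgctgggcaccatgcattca
Mmp12, chr9:7347124-7347423, plus strand: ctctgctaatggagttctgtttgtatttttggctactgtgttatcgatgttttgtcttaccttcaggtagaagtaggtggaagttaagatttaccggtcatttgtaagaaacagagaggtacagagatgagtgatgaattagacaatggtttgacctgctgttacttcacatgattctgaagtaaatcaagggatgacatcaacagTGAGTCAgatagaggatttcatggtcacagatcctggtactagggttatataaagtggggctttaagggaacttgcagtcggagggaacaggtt
Mmp3, chr9:7445572-7445871, plus strand: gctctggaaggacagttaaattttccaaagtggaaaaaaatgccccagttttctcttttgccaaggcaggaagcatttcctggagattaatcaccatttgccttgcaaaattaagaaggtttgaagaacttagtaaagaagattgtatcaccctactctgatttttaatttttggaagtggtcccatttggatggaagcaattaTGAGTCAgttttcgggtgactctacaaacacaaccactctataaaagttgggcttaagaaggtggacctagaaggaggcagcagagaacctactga
Mmp10, chr9:7502092-7502391, plus strand: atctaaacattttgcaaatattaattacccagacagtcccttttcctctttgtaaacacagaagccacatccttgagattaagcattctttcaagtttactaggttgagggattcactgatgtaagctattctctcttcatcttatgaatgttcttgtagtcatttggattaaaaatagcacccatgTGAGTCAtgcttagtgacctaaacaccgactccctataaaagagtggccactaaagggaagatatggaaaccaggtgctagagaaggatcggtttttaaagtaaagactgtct
The motif begins 35 bases before the start in Mmp13, 44 in the second of 2 Mmp12 windows, 46 in Mmp3 and 63 in Mmp10. Mmp13 has the form TGACTCA and the other 3 have TGAGTCA. These are matches of letters, and binding of a factor was not measured.

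**Figure D1:**
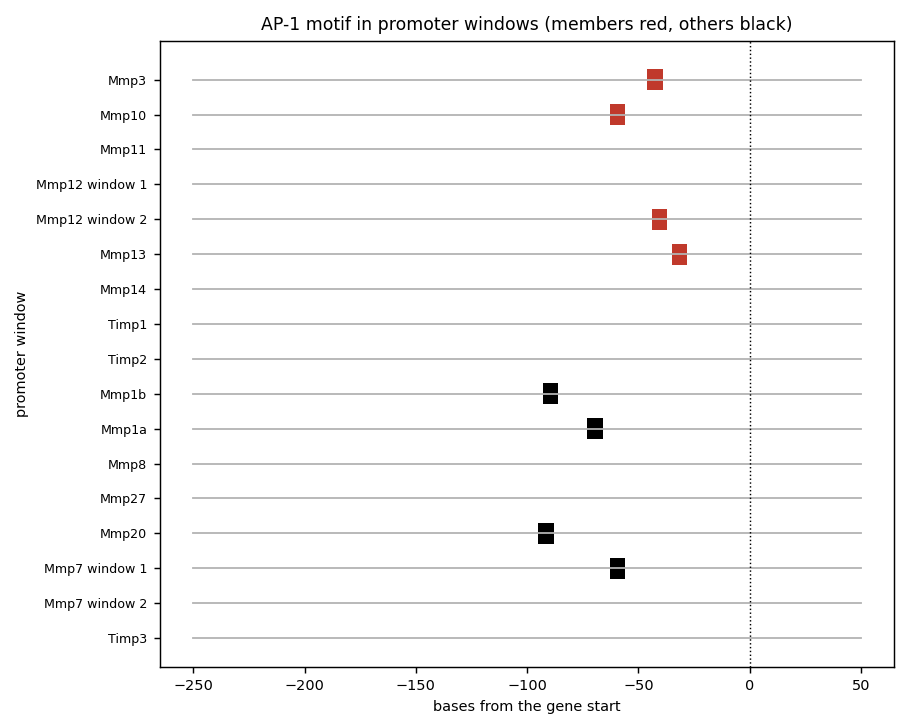
Position of the AP-1 motif TGANTCA (boxes) in promoter windows of the MMP and TIMP genes and of their neighbours in the chromosome 9 cluster, in bases from the gene start (dotted line), each grey line being a window of 300 bases. The boxes of Mmp13, Mmp12 (window 2), Mmp3 and Mmp10 lie 35 to 63 bases before the start, and the windows of Mmp11, Mmp14, Timp1 and Timp2 hold none.

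The deposited values are linear intensities from 1, the lowest in the table, to 1938, with medians of 8.57 to 8.94 per PN1a sample and 8.88 to 9.51 per PN1b sample. Samples are named by group and a number that pairs nothing, and whether they came from separate mice is not given (PN1b 1 to PN1b 4 are titled with number ranges, possibly pools), so that p-values cover only the spread among these arrays, which may in part be technical. The luminal keratin genes Krt8 and Krt18, the latter in its brighter probe set, had intensities of 307 to 657 and 639 to 936 in PN1b and of 52.7 to 443 and 73.0 to 653 in PN1a. They do not stand for all luminal epithelial markers. Of 18 such genes by their brightest probe set, 10 were higher in mean log2 intensity in PN1a than in PN1b, against 47% of all genes. The median difference was 0.30. The basal keratin genes Krt5 and Krt14 were dim in both groups, at 2.85 to 12.2 and 1.01 to 4.44. PN1a 1 and PN1a 2 stood apart, with Fos at 16.2 and 14.6 against 246 to 626 in the other 9 samples and the lowest Krt8 and Krt18 of all. Their titles begin with a number, whereas those of the other PN1a samples and of PN1b 5 begin with the line name and a letter. What these forms mean is not given. Sample titles end in 1 of 3 numbers that the sources used here do not explain, and samples with the same ending are called a title set: set 1 holds all 5 PN1a samples with PN1b 5 and PN1b 6, set 2 holds PN1b 2, and set 3 holds PN1b 1, PN1b 3 and PN1b 4.

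Transcripts of Mmp10 and Timp1 were called higher in PN1a than in PN1b lesions, and 0 of the 16 MMP and TIMP probe sets were called lower. Log2 intensities were compared with limma over all probe sets, and calls needed a change of at least 1.5-fold with p under 0.05 after Benjamini-Hochberg adjustment. By this rule 2 of the 16 probe sets were called higher, while 0.869% of all 12422 were, and 0 were called lower, against 1.62% of all (2.49% in either direction). The two-sided test of the study's methods, on log values at an unadjusted p under 0.01 and 1.5-fold, called 3 higher against 2.18% of all, and 0 lower against 3.56%. Before adjustment, p was under 0.05 for 4 of the 16, all with higher estimates in PN1a, where 7.65% of all probe sets had such a p, while 11.3% of all had one with a lower estimate. The log2 fold change, PN1a minus PN1b, was above 0 in 12 of 16 probe sets, against 48.6% of all, and its median was 0.49 against -0.01 over all. Taking for each gene its brightest probe set, 2 of 10 were called higher against 0.836% of 8251 genes, 0 were called lower against 1.84%, and 9 of 10 lay above 0 against 47% of them. Every PN1a sample lay above every PN1b sample in 1 of the 16 probe sets, that of Mmp10, against 1.58% of all, and none had the opposite order, which 2.38% of all did. In signal, 10 of the 16 probe sets had a mean log2 below the median of all probe sets, as had 5 of the 10 genes by their brightest probe set.
The counts rest on few samples. With PN1a 1 and PN1a 2 both left out, and within title set 1 (5 PN1a and 2 PN1b samples), 0 of the 16 probe sets were called in either direction, and the median log2 fold change of the 16 was 0.37 and 0.23. Of all probe sets 1.34% and 0.145% were called in these fits, so that a count of 0 among 16 is near the background and says nothing of the members.

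**Figure D2:**
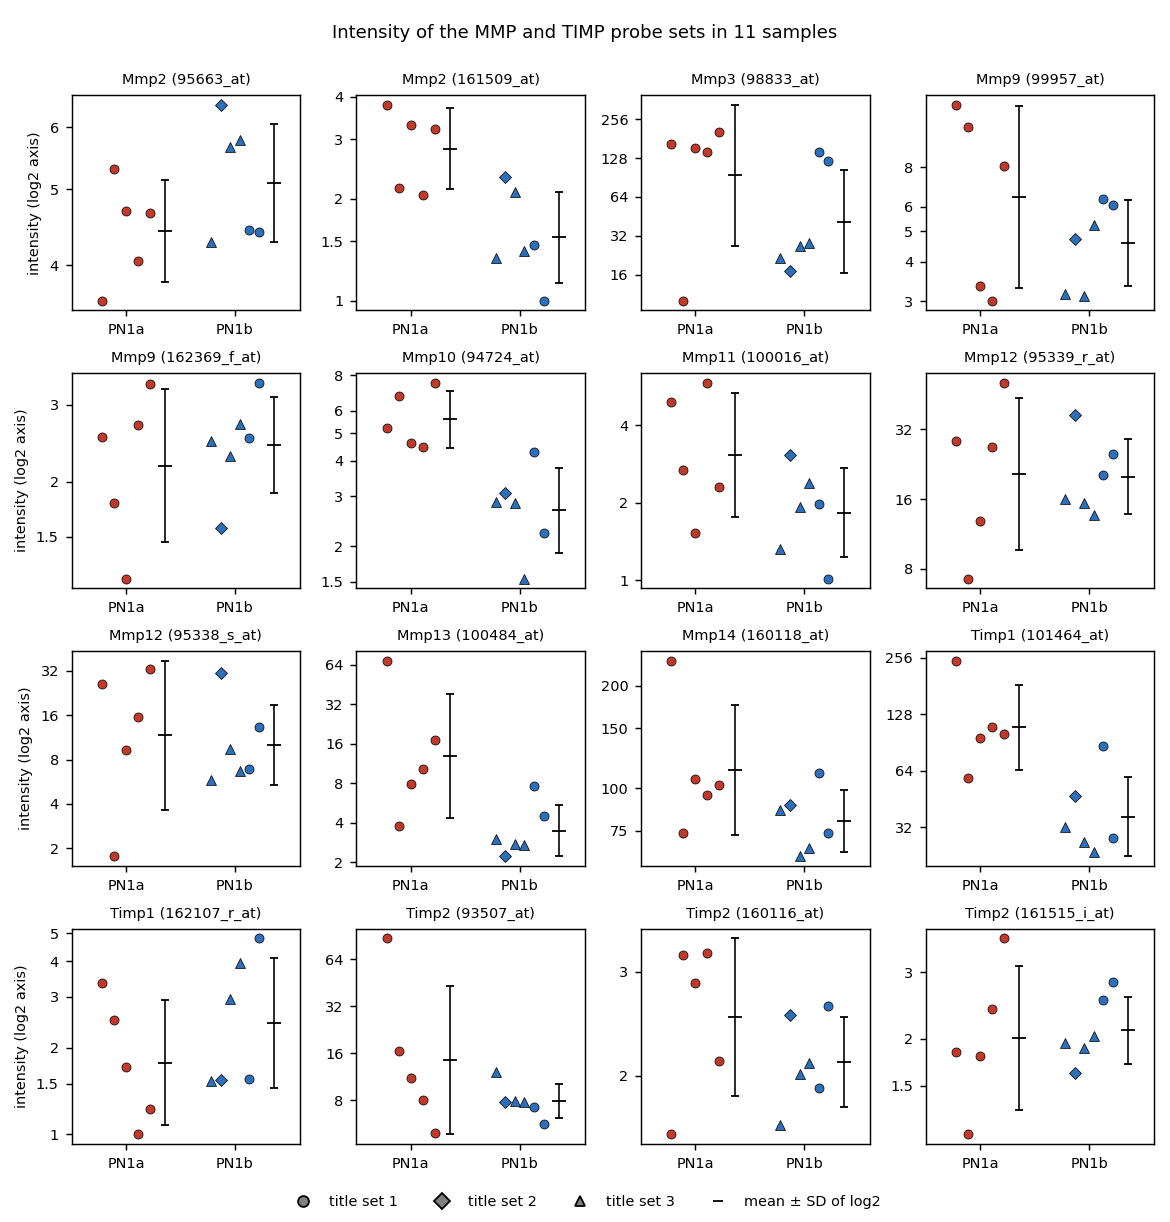
Intensity of each MMP and TIMP probe set in every sample (log2 axis with its own range in each panel), PN1a in red and PN1b in blue, with the marker shape giving the title set and the bars the mean ± SD of log2 (n = 5 and n = 6). In the Mmp10 panel all PN1a points lie above all PN1b points, in the Mmp3 panel PN1b 5 and PN1b 6 lie among the PN1a points, and PN1a 1 is the highest point for Mmp13, Mmp14, Timp1 (101464_at) and Timp2 (93507_at).

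**Figure D3:**
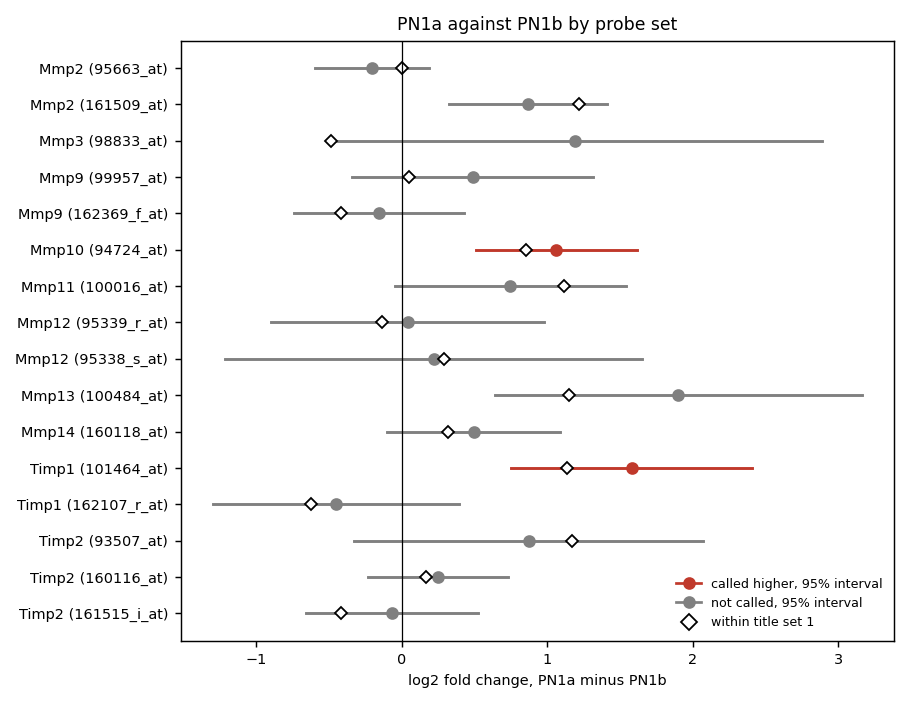
Log2 fold change of PN1a over PN1b for each probe set with its 95% interval from limma (11 samples), called probe sets in red and others in grey, and open diamonds for the estimate within title set 1. Mmp10 at 1.06 and Timp1 (101464_at) at 1.58 are the 2 in red, and the diamond of Mmp3 lies on the other side of 0 from its point.

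Stromelysins cut proteoglycans, laminin and fibronectin and can activate other MMPs. Mmp10, stromelysin-2, had intensities of 5.21, 6.77, 4.59, 4.47 and 7.52 in PN1a 1 to PN1a 5 and of 1.54 to 4.29 in PN1b, with a median of 2.85. The groups did not overlap, but PN1a 4 as the lowest PN1a sample and PN1b 5 as the highest PN1b sample lay close to each other. Its mean log2 intensity was 2.48 ± 0.34 for PN1a (SD, n = 5), whereas for PN1b it was 1.42 ± 0.50 (SD, n = 6). All Mmp10 intensities lay below the median intensity of every sample, detection calls were not used here, and so Mmp10 was not shown to be above background. Its estimate was higher in PN1a and was called (log2 fold change 1.06, SE 0.26, 95% interval 0.51 to 1.62, adjusted p = 0.0455 from limma). Within title set 1 the difference was 0.86 (adjusted p = 0.674 from limma), and a model with the title set as a block gave the same estimate (adjusted p = 0.483 from limma), so that neither kept the call. On the log2(value + 16) scale, which damps dim probe sets, the difference was 0.21 (adjusted p = 0.0571 from limma).
Mmp3, stromelysin-1, gave 164, 10.1, 153, 143 and 204 in PN1a 1 to PN1a 5. In PN1b it ran from 17.1 to 143 with a median of 27.4. PN1a 2 was the lowest of all 11 samples, and the other PN1a samples lay near PN1b 5 and PN1b 6, at 143 and 121, and far above the other 4 PN1b samples, at 17.1 to 28.2. The log2 fold change of 1.19 was not called (SE 0.79, 95% interval -0.50 to 2.89, adjusted p = 0.445 from limma). It turned to -0.48 within title set 1, and was 2.00 without PN1a 1 and PN1a 2 (adjusted p = 0.168 from limma).
Mmp11, stromelysin-3, which furin can activate inside the cell, was dim at 4.92, 2.68, 1.53, 5.86 and 2.30 in PN1a 1 to PN1a 5. PN1b ranged from 1.01 to 3.05 with a median of 1.95. PN1a 1 and PN1a 4 exceeded every PN1b sample, and the other 3 lay among them. The log2 fold change of 0.75 was not called (95% interval -0.04 to 1.54, adjusted p = 0.292 from limma).

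Mmp13, collagenase-3, cleaves fibrillar collagens and had the largest log2 fold change of the 16 probe sets. Its intensities were 69.1, 3.78, 7.94, 10.3 and 17.03 in PN1a 1 to PN1a 5. PN1b spanned 2.25 to 7.62 with a median of 2.88. All PN1a samples but PN1a 2 lay above every PN1b sample, PN1a 1 lay far above the rest, and within PN1b the samples of title set 1, PN1b 5 and PN1b 6, were the highest. Mean log2 intensity was 3.69 ± 1.56 for PN1a (SD, n = 5), whereas for PN1b it was 1.79 ± 0.65 (SD, n = 6). The difference was not called (log2 fold change 1.90, SE 0.59, 95% interval 0.64 to 3.16, adjusted p = 0.100 from limma). Without PN1a 2 it was 2.34 and was called (adjusted p = 0.0478 from limma), without PN1a 1 it was 1.30 (adjusted p = 0.145 from limma), and without both it was 1.69 (adjusted p = 0.0594 from limma). Within title set 1 it was 1.15 (adjusted p = 0.765 from limma), and 0.545 there without PN1a 1. All PN1b values and those of PN1a 2 and PN1a 3 lay below the median intensity of every sample. On the log2(value + 16) scale the Mmp13 difference was 0.71 (adjusted p = 0.231 from limma). On that scale it was not the largest, as Timp1 (101464_at) had 1.24 and Mmp3 1.01.

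Mmp12, macrophage elastase, is known as a product of macrophages and cuts elastin. Its probe set 95339_r_at gave 28.6, 7.26, 12.9, 26.9 and 50.9 in PN1a 1 to PN1a 5. PN1b values ran from 13.6 to 37.0 with a median of 18.2. PN1a samples were both the lowest and the highest of the 11, and the log2 fold change was 0.04 (95% interval -0.90 to 0.98, adjusted p = 0.976 from limma). The other probe set, 95338_s_at, ranged from 1.75 in PN1a 2 to 33.1 in PN1a 5 and from 5.78 to 30.9 in PN1b. Both probe sets ranked PN1a 5 first and PN1a 2 last, and the second had a log2 fold change of 0.22 (95% interval -1.21 to 1.65, adjusted p = 0.892 from limma). A difference as large as that of Mmp10 lies inside the second interval and just outside the first.

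The gelatinases Mmp2 and Mmp9 cut denatured collagen and collagen of basement membranes. For Mmp2, probe set 161509_at gave 3.78, 2.14, 3.29, 2.06 and 3.20 in PN1a 1 to PN1a 5. In PN1b it ran from 1, the lowest value of the table, in PN1b 6 to 2.31, with a median of 1.43. PN1a 1, PN1a 3 and PN1a 5 exceeded every PN1b sample. The log2 fold change of 0.87 was not called (SE 0.25, 95% interval 0.32 to 1.41, adjusted p = 0.0837 from limma). The second Mmp2 probe set, 95663_at, was at 3.61, 5.31, 4.69, 4.06 and 4.66 in PN1a 1 to PN1a 5 and at 4.29 to 6.41 in PN1b, with a median of 5.05. Its groups overlapped, and its estimate had the other sign, at -0.20 (95% interval -0.60 to 0.19, adjusted p = 0.594 from limma). The probe sets of Mmp2 therefore disagree.
Mmp9, in probe set 99957_at, gave 12.6, 10.8, 3.36, 3.01 and 8.06 in PN1a 1 to PN1a 5. PN1b lay between 3.12 and 6.36, with a median of 4.98. PN1a held the 3 highest samples and the lowest one. The log2 fold change was 0.49 (95% interval -0.34 to 1.32, adjusted p = 0.534 from limma) and -0.08 without PN1a 1 and PN1a 2. Probe set 162369_f_at was dim, at 1.21 to 3.34 in PN1a against 1.57 to 3.36 in PN1b, and gave -0.16 (adjusted p = 0.802 from limma). On this array the letters f, r, s and i before the ending of a name mark probe sets chosen under relaxed rules, which may also bind other transcripts.
Mmp14, a membrane-type MMP that activates the precursor of Mmp2 at the cell surface with the help of Timp2, was bright in all samples. Its intensities were 237, 74.03, 107, 95.7 and 103 in PN1a 1 to PN1a 5. PN1b values were 63.1 to 111, with a median of 80.1. Only PN1a 1 lay above every PN1b sample, and the log2 fold change of 0.50 was not called (SE 0.28, 95% interval -0.10 to 1.09, adjusted p = 0.358 from limma).

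Timp1, a secreted inhibitor of most MMPs that many cells make during inflammation and matrix repair, was the other gene called higher. Probe set 101464_at gave 247, 58.9, 95.7, 109 and 101.1 in PN1a 1 to PN1a 5. PN1b ran from 23.6 to 86.8 with a median of 30.1. All PN1a samples but PN1a 2 exceeded every PN1b sample, and PN1b 5 was the PN1b sample that lay above PN1a 2. Mean log2 intensity was 6.77 ± 0.75 for PN1a (SD, n = 5) as compared to 5.19 ± 0.70 for PN1b (SD, n = 6). Timp1 was 2.99-fold higher in PN1a (log2 fold change 1.58, SE 0.38, 95% interval 0.75 to 2.41, adjusted p = 0.0476 from limma). Within title set 1 the difference was 1.14 (adjusted p = 0.684 from limma), the block gave the same estimate (adjusted p = 0.509 from limma), and without PN1a 1 and PN1a 2 it was 1.48 (adjusted p = 0.0811 from limma), none of which was called. The other Timp1 probe set, 162107_r_at, was near the lowest value of the table, at 1 to 3.36 in PN1a against 1.53 to 4.79 in PN1b, and its estimate was -0.45 (95% interval -1.29 to 0.39, adjusted p = 0.580 from limma).
Timp2, which inhibits MMPs and also takes part in the activation of Mmp2, did not pass the test in any of its probe sets. Probe set 93507_at gave 86.8, 16.6, 11.1, 8.11 and 4.96 in PN1a 1 to PN1a 5. Its PN1b values were 5.70 to 12.2, with a median of 7.81. PN1a 1 stood far above the other 10 samples, and PN1a also held the lowest one. The log2 fold change of 0.87 (95% interval -0.33 to 2.07, adjusted p = 0.428 from limma) became 0.23 without PN1a 1 and -0.05 without PN1a 1 and PN1a 2. Probe sets 160116_at and 161515_i_at were dim, with ranges over both groups of 1.59 to 3.23 and 1.12 to 3.68. They had log2 fold changes of 0.25 and -0.07 (adjusted p = 0.593 and 0.923 from limma).

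The highest and lowest values of the 16 probe sets were uneven over samples. How often each sample was the highest or lowest over all probe sets was not counted. Whether the pattern is particular to these genes is therefore not known. PN1a 1 had the highest intensity of the 11 samples in 6 of the 16 probe sets and PN1a 5 in 5, whereas PN1b 1 and PN1b 5 were the highest or the lowest sample in none. PN1a 2 was the lowest in 4 probe sets, those of Mmp3, Mmp12 (both) and Timp2 (161515_i_at), and it was never the highest. Summed over the brightest probe set of each of the 10 genes, a sum led by Mmp3, Mmp14 and Timp1, intensity was 860 in PN1a 1 and 196 in PN1a 2, with 402 to 503 in the other 3 PN1a samples. PN1b sums ran from 156 to 393, with PN1b 5 at 393 and PN1b 6 at 272 above the other 4, at 156 to 218. PN1a 2 therefore lay within the range of the PN1b samples, and PN1b 5 below the other 4 PN1a samples.

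**Figure D4:**
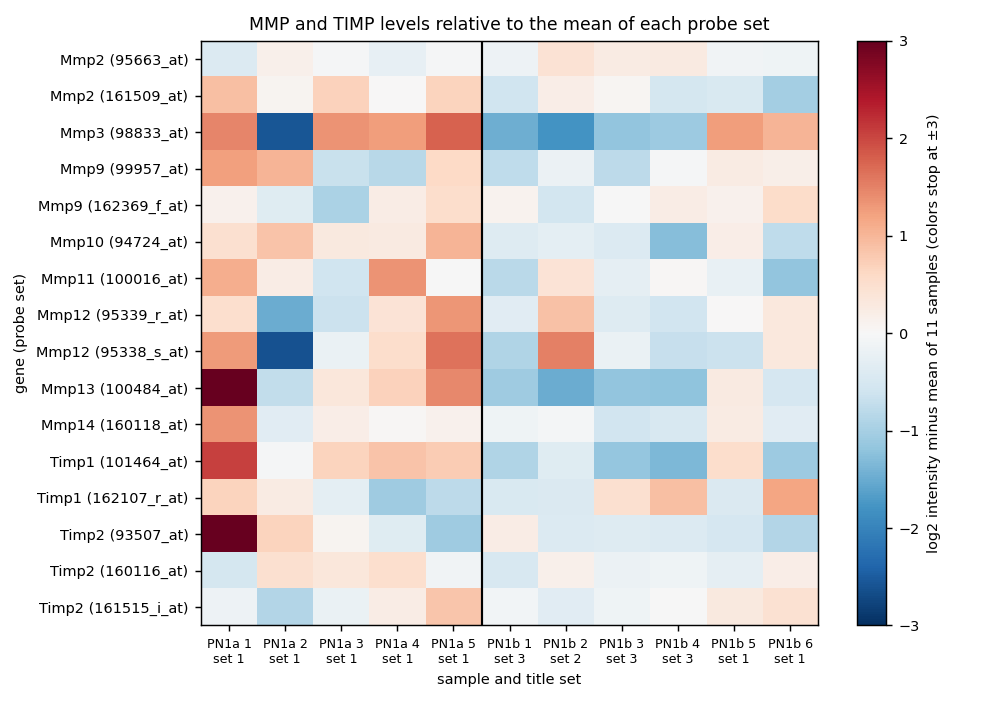
Log2 intensity of each MMP and TIMP probe set in each sample minus the mean of the probe set over 11 samples, red above and blue below it, with the title set under each sample and a line between PN1a and PN1b. PN1a 1 is dark red for Mmp13 and Timp2 (93507_at), PN1a 2 is blue for Mmp3 and Mmp12, and PN1b 5 and PN1b 6 are red for Mmp3 where the other 4 PN1b samples are blue.

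Inside PN1b, Mmp3 was higher in both samples of title set 1, PN1b 5 and PN1b 6, than in the other 4, by 2.52 on the log2 scale. Mmp13 at 1.13, Mmp9 (99957_at) at 0.65 and Timp2 (161515_i_at) at 0.52 differed in the same direction without overlap, an order that 11.7% of all probe sets had. Timp2 (93507_at) had the opposite order without overlap, at -0.44, as had 14.8% of all. Mmp10 and Timp1 (101464_at) differed by 0.31 and 0.67. This split was looked at after the Mmp3 values were seen, so the differences are given as a description with no test. The other 4 samples are also the ones titled with number ranges, and the parts of title set and of possible pooling cannot be told apart. As title sets 2 and 3 hold no PN1a sample, PN1a can be compared within a set only with PN1b 5 and PN1b 6.
The calls of Mmp10 and Timp1, both close to the threshold, also changed when single samples were left out. Calls over the whole table changed as well. Of 12422 probe sets 108 were called higher with all samples. With 1 sample left out the number ran from 44 (without PN1b 3) to 182 (without PN1b 5). The call of Mmp10 remained when PN1b 5 was dropped (adjusted p = 0.0194 from limma) and was lost on dropping any of the other 10 samples (limma, adjusted p = 0.0610 to 0.0949), with a log2 fold change of 0.90 to 1.2 throughout. That of Timp1 remained without PN1a 2 (adjusted p = 0.0352 from limma) or PN1b 5 (adjusted p = 0.0128 from limma) and was lost on dropping any of the other 9 (limma, adjusted p = 0.0599 to 0.111), at 1.29 to 1.83.

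**Figure D5:**
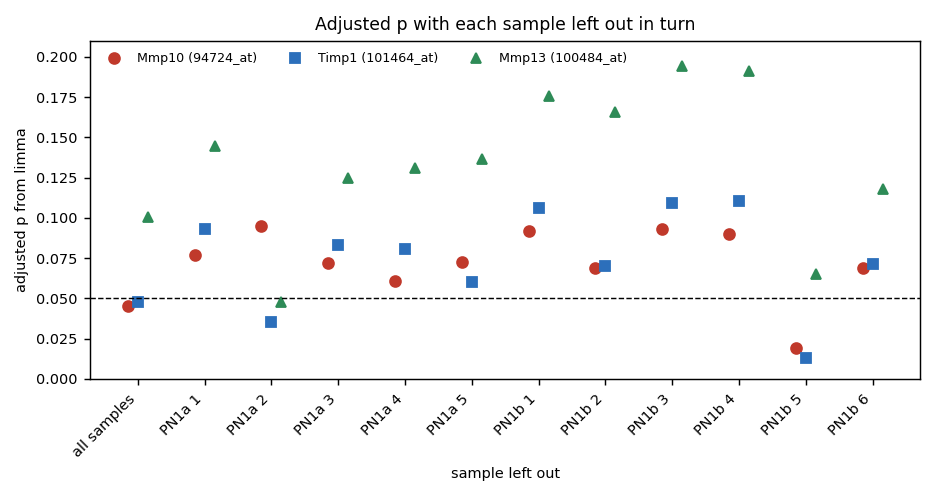
Adjusted p from limma for Mmp10 (red circles), Timp1 (101464_at, blue squares) and Mmp13 (green triangles) with all samples and with each sample left out in turn, the dashed line being the threshold of 0.05. Points below the line are Mmp10 and Timp1 with all samples and without PN1b 5, and Timp1 and Mmp13 without PN1a 2.

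Of 6 further MMP and TIMP genes measured 0 passed the test, and 3 had a log2 fold change above 0. Over all genes by their brightest probe set, 0.836% were called higher, 1.84% were called lower and 47% lay above 0. Counts of 0 calls in this list and in the lists below are near the called shares and say nothing of the listed genes. Mmp7, matrilysin, an epithelial MMP at the far end of the chromosome 9 cluster, had intensities of 3.84 to 5.31 in PN1a and 5.70 to 7.41 in PN1b. Every PN1a sample lay below every PN1b sample, at a log2 fold change of -0.59 that was not called (SE 0.16, adjusted p = 0.0677 from limma). That order, also seen for Timp3 below, was held by 2.38% of all probe sets. All Mmp7 intensities lay below the median intensity of every sample, and so Mmp7 was not shown to be above background. Timp3, an inhibitor that stays bound to the matrix, was at 35.3 to 100.4 in PN1a and 114 to 152 in PN1b, again without overlap and without a call (log2 fold change -0.85, SE 0.27, adjusted p = 0.106 from limma). Its lowest samples were PN1a 1 and PN1a 2, and without them the estimate was -0.40. Mmp8, the neighbour of Mmp10, had -0.19, Mmp16 0.00, Mmp17 0.43 and Mmp24 0.27 on the same scale.
Genes that activate or restrain MMPs gave 0 calls of 31 measured. The smallest adjusted p-values were those of Cd44, a hyaluronan receptor that holds MMPs at the cell surface, with 0.87 (SE 0.22, adjusted p = 0.0561 from limma), and of Reck, a membrane-anchored MMP inhibitor, with -1.33 (SE 0.36, adjusted p = 0.0686 from limma). Without PN1a 1 and PN1a 2 the estimate of Reck was -0.70. Serpinb5, the protease inhibitor family member maspin, had 1.25 (adjusted p = 0.0822 from limma), and 1.71 with a call when both were left out (adjusted p = 0.00177 from limma), and the mast cell protease Mcpt4 had -0.99 (adjusted p = 0.103 from limma). Related proteases of the ADAM and ADAMTS families and their like gave 0 calls of 19, with Tll1 at 0.57 (adjusted p = 0.158 from limma).
Among 38 genes of matrix proteins that MMPs can cut, 1 was called higher and 0 lower, against 0.836% and 1.84% of all genes. The called gene was Tnc, tenascin C, a matrix glycoprotein of remodelling tissue. Its intensities were 352, 169, 54.6, 48.8 and 48.5 in PN1a 1 to PN1a 5 and 12.6 to 26.7 in PN1b. All PN1a samples lay above all PN1b samples, an order that 1.58% of all probe sets had, with PN1a 1 and PN1a 2 the highest. Its log2 fold change was 2.32 (SE 0.48, adjusted p = 0.0259 from limma), and its second probe set had 2.42 (adjusted p = 0.0202 from limma). Without PN1a 1 and PN1a 2 the first was 1.41 and was still called (adjusted p = 0.0237 from limma). Within title set 1 it was 2.37 and was not called (adjusted p = 0.633 from limma). Lama2, a laminin chain of basement membranes, had -2.05 (adjusted p = 0.0834 from limma), but -0.80 without PN1a 1 and PN1a 2, its lowest samples (adjusted p = 0.0924 from limma). Lamb1 had -0.68 (adjusted p = 0.109 from limma) and Col4a3 0.82 (adjusted p = 0.121 from limma).
AP-1 and Ets transcription factor genes gave 0 calls of 14, with 4 above 0 and a median of -0.48. Fosb had -2.40 (SE 0.70, adjusted p = 0.0835 from limma), Fos -2.31 (adjusted p = 0.144 from limma), Atf3 -2.82 (adjusted p = 0.148 from limma) and Jun -0.94 (adjusted p = 0.152 from limma). PN1a 1 and PN1a 2 were the 2 lowest samples for all 4 of these genes, and without them the median of the 14 was -0.10. Cytokine genes known to induce MMPs gave 0 calls of 18, with Pdgfa at -0.35 (adjusted p = 0.288 from limma) and Tgfb1 at 0.73 (adjusted p = 0.365 from limma). Without those 2 samples 1 was called, Tnf, at 2.19 (adjusted p = 0.0073 from limma), as compared to 0.29 with all samples.

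Of 18 macrophage markers 5 were called higher in PN1a and 0 lower, against 0.836% and 1.84% of all genes by their brightest probe set. Of the 18, 16 lay above 0, against 47% of all genes, with a median log2 fold change of 1.15. The same shares stand beside the marker counts below, where a count of 0 calls is near the called shares and says nothing of the markers. The called macrophage markers were Aif1 at 1.58 (adjusted p = 0.00405 from limma), Fcgr2b at 1.39, Cd68 at 1.11, C1qb at 2.20 and Lgmn at 1.19. Summed intensity of the 18 genes was 994 to 1645 in PN1a against 376 to 997 in PN1b. The samples at the meeting point, PN1a 2 at 994 and PN1b 5 at 997, are the ones that overlap for Timp1. Csf1r, a defining marker of macrophages, was at 29.2 to 91.8 in PN1a and 9.92 to 24.4 in PN1b in its brighter probe set. It was not called there (log2 fold change 1.26, adjusted p = 0.0637 from limma). The same order without overlap was seen in 1.58% of all probe sets. In the dimmer Csf1r probe set the groups overlapped, at 7.36 to 9.99 in PN1a and 5.28 to 10.5 in PN1b. Within title set 1 the median of the 18 was 0.72 and none was called, where 0.145% of all probe sets were. Without PN1a 1 and PN1a 2 the median was 0.99 and 1 was called, Aif1. The part of macrophage content in the Mmp10 and Timp1 results was not tested.
Of 9 adipocyte markers 5 lay above 0 and their median was 0.055 on the log2 scale, while 1 was called, Lpl, which was lower at -1.81 (adjusted p = 0.0415 from limma), or -0.94 without PN1a 1 and PN1a 2. Their sum, of which Lpl was the largest part in every sample, did not overlap between groups, at 78.95 to 187 in PN1a and 238 to 299 in PN1b. Basal epithelial markers gave 0 higher and 2 lower of 10, Trp63 at -1.55 and Myl9 at -1.51 (adjusted p = 0.0262 and 0.0374 from limma). T and B cell markers gave 1 lower of 11, Pou2af1 at -1.86 (adjusted p = 0.000128 from limma). Within title set 1 Lpl at -1.76, Trp63 at -1.24 and Myl9 at -1.04 were not called, while Pou2af1 was (adjusted p = 0.0485 from limma). Fibroblast markers gave 0 calls of 15, and their sum was 1001 in PN1a 2 against 3413 to 3536 in the other PN1a samples and 2349 to 4018 in PN1b. Neutrophil, luminal epithelial, endothelial and skeletal muscle markers, 12, 18, 9 and 12 genes, and 9 housekeeping genes gave 0 calls in their brightest probe sets, while dimmer probe sets of Csf3r at 0.82 and Krt19 at 3.74 were called higher. In these lists, in the same order, 7, 10, 0, 6 and 2 genes lay above 0, against 47% of all genes. Their medians were 0.27, 0.30, -0.38, 0.005 and -0.05. Of the basal, T and B cell and fibroblast markers 1, 2 and 9 lay above 0, with medians of -0.46, -0.48 and 0.05. The endothelial median was 0.08 without PN1a 1 and PN1a 2. Without PN1a 1 and PN1a 2 the luminal markers Krt19 at 4.09, Gata3 at 2.08 and Muc1 at 1.99 and the basal marker Krt17 at 1.99 were called higher, and Myl9 was not called at -1.28. No marker counted here sat at intensity 1 in all samples, and the part of these cell types in the Mmp10 and Timp1 results was not tested.
By log2 profile over the 11 samples, each centred on its own mean, the probe sets nearest to Mmp10 were those of the chemokine gene Ccl12, with a mean absolute difference of 0.20, the GTPase gene Nras, with 0.23, and the syndecan gene Sdc1, with 0.23, where Mmp10 itself deviated from its mean by 0.56 on average. Nearest to Timp1 (101464_at) were Aebp1 at 0.28 and the macrophage receptor genes Mrc1 at 0.30 and Msr1 at 0.36, against a deviation of Timp1 of 0.89. These genes were picked for the smallest differences among all probe sets that name 1 gene. As Mmp10 and Timp1 differ between the groups, profiles near theirs tend to differ likewise by this choice. A link between the genes was not tested.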

How the data were processed

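RNA of 5 PN1a and 6 PN1b mammary glands was measured on MG_U74Av2 arrays. From the scans the authors derived model-based values (dChip, PM-MM, quantile-normalized) and deposited them as linear intensity, 1 column per sample. The sources used here name no dChip version, and background correction and normalization were not repeated from scanner data. Of 12488 probe sets 66 array controls were left out. All columns of values belong to these 11 samples, and groups were taken from the sample labels. By the annotation of the array, 10833 tested probe sets name 1 gene, 396 several and 1193 none.

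Log2 intensity without a pseudocount was compared with limma 3.58.1 under R 4.3.3 (lmFit with eBayes, two-sided, no covariate, Benjamini-Hochberg over 12422 probe sets), and called at an adjusted p under 0.05 and 1.5-fold. At most 1.24% of values were identical between any 2 samples. The precision is limited by the number of arrays. Steps were tested on simulated data. Python 3.11.15 with matplotlib 3.10.9 drew the figures, and promoter windows came from RefSeq (GRCm38.p6).

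The members, the gene lists and the motif were chosen with earlier results of these data known, so counts over them are descriptions. The rule for named genes took every member probe set, from each other list the called genes and up to 4 with the smallest adjusted p, the 3 nearest profiles of Mmp10 and Timp1, and the neighbours in the Mmp cluster, and the text gives only part of what it took from the marker lists. Krt8, Krt18, Krt5, Krt14 and Csf1r lie outside it. A gene with several probe sets is counted by the one with the highest mean. Alternatives were the methods' t-test, title set as a block and within title set 1, repeated quantile normalization, centring on the median, log2(value + 16), a filter at the median, eBayes with trend and robust, no fold threshold and each sample left out. Added after seeing the data were the settings without PN1a 1 and PN1a 2 and, within title set 1, without PN1a 1, and the comparison of title sets inside PN1b.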

Additional observations from a re-analysis of the deposited data

Results flagged for a closer look

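Mmp3 in PN1a 2, at an intensity of 10.1, lay apart from the other 4 PN1a samples, the nearest of which was at 143. The gap made up 0.88 of the whole range of the group on the log2 scale, beyond the 0.71 that chance exceeds in about 1 of 20 groups of 5 samples. Among 32 groups of values looked at, 16 probe sets in both PN1a and PN1b, it was the 1 that did so. At the rate of about 1 of 20, 1 such group among 32 is no more than chance would give. PN1a 2 was also the lowest of all samples for both Mmp12 probe sets and had the lowest sum of fibroblast markers, at 1001. The part of these in the Mmp3 value was not tested.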

How the results depend on the processing

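The number of MMP and TIMP probe sets called higher, 2 by the test used here, was 3 by the methods' t-test at its own thresholds, with Mmp2 (161509_at) as the third, and 0 by that test after Benjamini-Hochberg adjustment. It was 2 with quantile normalization repeated, with each sample centred on its median and with no fold threshold, and 1 (Timp1) both with eBayes with trend and robust and with probe sets above the median only, a filter that left 6 of the 16. It was 0 with title set as a block, within title set 1, with log2(value + 16), with PN1a 1 and PN1a 2 left out, and within title set 1 without PN1a 1. With each sample left out in turn it ran from 0 to 2, being 2 without PN1a 2 (Timp1 and Mmp13) or PN1b 5 (Mmp10 and Timp1) and 0 without any other. In the same fits 44 to 182 of all probe sets were called higher, against 108 with all samples. The number of MMP and TIMP probe sets called lower was 0 in all of these settings. Of 326 recomputed log2 fold changes of single probe sets 267 kept direction and side of the threshold, 32 kept the direction but lost the call, 1 gained it and 26 changed sign. With title set as a block, which rests on the same 7 samples as the comparison within title set 1 and gives the same estimate, Mmp3 turned to -0.48, Mmp12 (95339_r_at) to -0.14 and Mmp2 (95663_at) to 0.001. Within title set 1 without PN1a 1 these were -0.69, -0.26 and 0.075, Mmp9 (99957_at) was -0.19 and Mmp12 (95338_s_at) -0.0025. Without PN1a 1 and PN1a 2, Mmp9 (99957_at) was -0.083, Timp2 (93507_at) -0.052 and Timp2 (161515_i_at) 0.26, and with log2(value + 16) the last was 0.00082. With each sample left out in turn the estimate ran from -0.16 to 0.90 for Mmp12 (95338_s_at), -0.29 to 0.42 for Mmp12 (95339_r_at), -0.31 to 0.058 for Mmp9 (162369_f_at) and -0.29 to 0.14 for Timp2 (161515_i_at). The cause of these changes was not tested. No paired analysis was made, because the sample titles carry no replicate numbers that the groups share. The titles of PN1a 4 and PN1b 5 share the letter B, which the sources used here do not explain. Of the 16 probe sets 10 lie below the median of all probe sets, where a small change in intensity is a large one on the log2 scale.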
